A study of Mus musculus with 16 samples.

Results

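The tight junction genes of brain endothelium are described here in cultured mouse brain microvascular endothelial cells (mBMEC). The 9 genes, Cldn5, Ocln, Tjp1, Esam, F11r, Jam2, Marveld2, Cgn and Lsr, were taken by name out of 54193 annotated genes, and the counts of all transcripts of each were summed in each of the 16 libraries. The cells came from the brains of mice aged 8 to 10 weeks that carried the Cdh5(PAC)-CreERT2 transgene, an endothelial recombinase activated by 4-hydroxytamoxifen (4-OHT), and floxed Pdcd10 alleles. Pdcd10 encodes CCM3, one of the proteins whose loss gives cerebral cavernous malformations. All 6 groups shared this genotype at isolation. WT cultures received no 4-OHT and KO cultures did, so that 4-OHT exposure and loss of Pdcd10 cannot be told apart. Cells of both kinds were left untreated (WT, 3 libraries; KO, 3 libraries) or received for 24 h 10 µM propranolol, a beta-adrenergic blocker (WT+P, 2 libraries; KO+P, 3 libraries), or 100 nM rapamycin, an inhibitor of mTORC1 (WT+R, 2 libraries; KO+R, 3 libraries). Brains of several mice were pooled for a culture and puromycin was used to select endothelial cells, so that a library stands for a culture and not for an animal.

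Tight junctions seal the cleft between neighbouring endothelial cells and are the main paracellular barrier between blood and brain. Claudins form the strands, occludin and tricellulin belong to a related family of membrane proteins, Lsr (angulin-1) recruits tricellulin to points where cells meet in corners, the JAM proteins and ESAM are immunoglobulin-like adhesion molecules, and ZO-1 and cingulin are scaffolds that tie these proteins to actin. Claudin-5 is the dominant claudin of brain endothelium. Whether loss of CCM3 and the drugs went with other transcript levels of this set is the question that the 6 groups address.

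The checks of the libraries came first. Depth ranged from 18.83 to 26.2 M counts. Pdcd10, the targeted gene, stood at 9.72, 11.0 and 9.73 CPM (counts scaled to library size with TMM factors) in the KO libraries. It stood at 11.5, 31.2 and 47.0 CPM in the WT libraries, so the library labelled WT replicate 1 lay near the KO level and the fold changes of the tight junction genes that rest on it, and the calls among other junction genes, are given with and without it. Pdcd10 was at 60.8 and 32.5 CPM in WT+P, 52.0 and 27.7 in WT+R, 13.1 to 16.7 in KO+P and 7.83 to 9.53 in KO+R. The 15 general endothelial markers all passed the filter on low counts and summed to 11154 to 19974 CPM per library, with Cdh5 at no less than 2450 CPM and Pecam1 at no less than 1360 CPM. Of 17 brain endothelial markers, Slc2a1 and Ly6c1 were high, whereas Mfsd2a and Slco1c1, which also define this cell type, had medians of 0.205 and 0.501 CPM. Among mural markers Pdgfrb and Rgs5 had medians of 2.93 and 0.244 CPM, whereas Tagln and Acta2 had medians of 198.0 and 71.2 CPM and reached 1860.0 and 618.0 CPM. Among astrocyte markers Gfap was at 0 in the median library and Gja1 at 63.4 CPM.

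Per unit of transcript length the genes differed widely. Median TPM (a share of transcripts that is corrected for their length) was 1763 for Cldn5, 769 for Esam, 221 for F11r, 107 for Tjp1, 48.7 for Ocln, 30.7 for Lsr, 8.38 for Marveld2 and 3.66 for Jam2. Each of Cldn5, Esam, F11r, Tjp1 and Marveld2 exceeded the next gene in this order in 16 of 16 libraries. Ocln exceeded Lsr in 11 of 16 libraries and Lsr exceeded Marveld2 in 15, so the ranks of these neighbours depended on the library. Cgn, which encodes cingulin, had 0 counts in 12 of 16 libraries and at most 3 counts in any, and was left out of every test by the filter on low counts. Its paralogue Cgnl1 (paracingulin) was at a mean of 802 ± 148 CPM (SD, n = 3) in WT and 1135 ± 251 CPM (SD, n = 3) in KO. Cldn5 alone made up 38.5 to 67.4% of the summed TPM of the 9 genes.

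**Figure D1:**
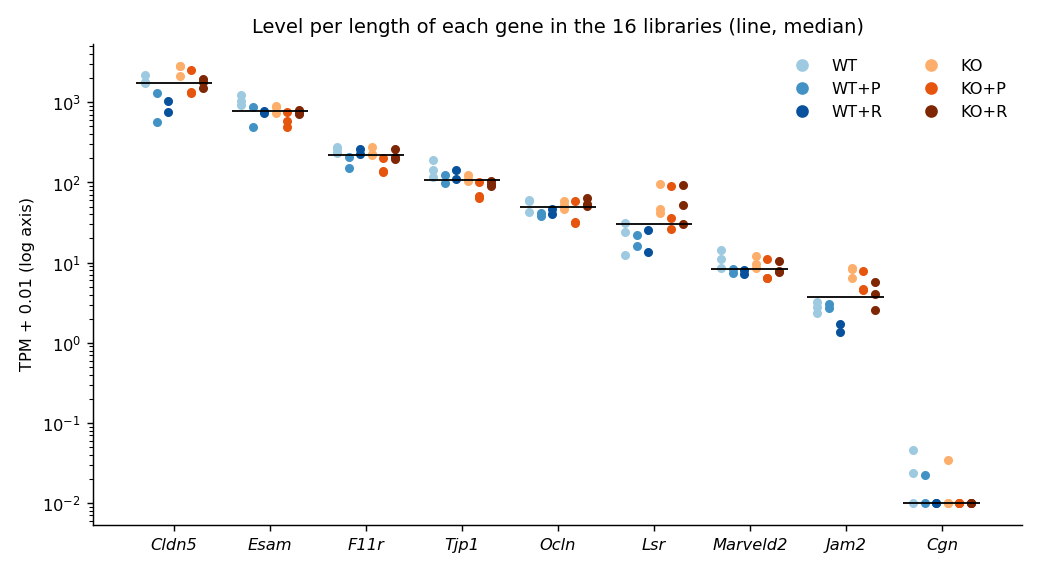
Level per length (TPM, log axis, drawn with 0.01 added) of each tight junction gene, with a point per library coloured by group and a line at the median of 16 libraries. Cldn5 has the highest median, 1763 TPM, and Cgn lies at 0 in most libraries.

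Cldn5 (ENSMUSG00000041378.3, GRCm39 chr16:18595597-18597012, + strand, 1 transcript) had the highest values in untreated KO cells and the lowest in drug-treated WT cells. Its levels were 1678, 1272 and 1256 CPM in WT and 2125, 1563 and 2151 CPM in KO. Under propranolol they were 397 and 973 CPM in WT+P and 1039, 988 and 1825 CPM in KO+P. Under rapamycin they were 603 and 812 CPM in WT+R and 1540, 1180 and 1552 CPM in KO+R. Both WT+P and both WT+R libraries lay below the 3 WT libraries, the KO+R libraries lay below the KO libraries, and the WT and KO libraries overlapped. Between libraries of the same replicate number, Cldn5 was higher in KO than in WT in 3 of 3 pairs, and lower with either drug in 2 of 2 WT pairs and 3 of 3 KO pairs.

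The 250 bases before the start of Cldn5 and of Lsr are shown because the levels of these genes were higher in KO than in WT in 3 of 3 pairs of the same replicate number and the list of transcription factors below includes the Krüppel-like factors Klf2 and Klf4, the forkhead factor Foxo1 and factors that bind E-boxes. The sequences are those of RefSeq (GRCm38.p6), which held windows for 7 of the 9 genes and none for Jam2 and Esam. They run 5′ to 3′ on the gene's strand, Cldn5 at chr16:18776597-18776846 (+) and Lsr at chr7:30973470-30973719 (-), with every match to 4 motifs in capitals.
Cldn5 promoter: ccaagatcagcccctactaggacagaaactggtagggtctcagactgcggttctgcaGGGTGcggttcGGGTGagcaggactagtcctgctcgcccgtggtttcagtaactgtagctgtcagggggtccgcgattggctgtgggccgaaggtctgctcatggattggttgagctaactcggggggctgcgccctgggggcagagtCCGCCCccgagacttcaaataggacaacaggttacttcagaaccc
Lsr promoter: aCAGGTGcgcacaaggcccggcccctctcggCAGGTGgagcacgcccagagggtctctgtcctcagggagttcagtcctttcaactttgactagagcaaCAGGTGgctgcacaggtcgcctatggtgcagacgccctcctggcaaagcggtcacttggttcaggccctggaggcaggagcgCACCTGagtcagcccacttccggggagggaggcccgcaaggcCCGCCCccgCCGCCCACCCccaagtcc
The motifs searched on both strands were CACCC (a core bound by Krüppel-like factors), GGGCGG (the GC box), CAGGTG (an E-box) and GTAAACA (the forkhead motif). The Cldn5 window held 2 CACCC and 1 GGGCGG match, and the Lsr window 1 CACCC, 2 GGGCGG and 4 CAGGTG matches, 1 of the GGGCGG matches overlapping the CACCC match by 1 base. Of all 32851 mouse windows of this length, 52.0% held CACCC, 32.7% GGGCGG, 17.2% CAGGTG and 3.17% GTAAACA. All 9 windows of the 7 genes held GGGCGG, 5 held CACCC, 3 held CAGGTG and 0 held GTAAACA. These are matches of letters in a short window and describe no binding.

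The occludin-like genes had flatter profiles. Ocln (occludin, ENSMUSG00000021638.14, chr13:100630334-100689535, - strand) ranged from 50.1 CPM in KO+P replicate 2 to 105 CPM in KO+R replicate 3. It was at 102, 62.9 and 87.1 CPM in WT and 97.9, 71.1 and 84.2 CPM in KO, which overlapped. Under propranolol it was at 59.0 and 62.0 CPM in WT+P and 54.6, 50.1 and 92.2 CPM in KO+P, both WT+P values lying below the lowest WT value. Marveld2 (tricellulin, ENSMUSG00000021636.18, chr13:100732464-100753489, - strand) was at 19.5, 14.8 and 24.4 CPM in WT and 15.9, 14.5 and 20.8 CPM in KO. Its WT+P libraries (11.5 and 14.4 CPM) and WT+R libraries (14.8 and 13.2 CPM) lay below the lowest WT library, in WT+R by less than the last digit printed.

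Lsr (ENSMUSG00000001247.18, chr7:30657195-30673340, - strand) separated by genotype. It was at 30.1, 37.2 and 14.4 CPM in WT, 18.9 and 25.3 CPM in WT+P and 17.4 and 31.7 CPM in WT+R. It was at 51.7, 54.7 and 116 CPM in KO, 34.5, 43.9 and 108 CPM in KO+P and 42.9, 65.3 and 119 CPM in KO+R. In each treatment all KO-type libraries lay above the WT-type libraries, and within KO, KO+P and KO+R replicate 3 was the highest. Lsr shares 38.2% of its exonic bases with genes on the opposite strand, mostly Gm4673, and the libraries carry no strand, so its counts are uncertain. Gm4673 itself was at 5.89 ± 1.54 CPM (SD, n = 3) in WT and 5.09 ± 0.227 CPM (SD, n = 3) in KO, and Fam187b, which overlaps Lsr as well, at 0.402 ± 0.248 CPM (SD, n = 3) in WT and 1.22 ± 0.741 CPM (SD, n = 3) in KO.

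Among the immunoglobulin-like genes, Jam2 (JAM-B, ENSMUSG00000053062.18, chr16:84570764-84623269, + strand) had the lowest level of the tested genes and the largest fold change between KO and WT. It was at 7.22, 4.82 and 4.80 CPM in WT and 15.8, 13.7 and 18.2 CPM in KO. With propranolol it was at 7.35 and 6.59 CPM in WT+P and 10.7, 11.9 and 20.7 CPM in KO+P, and with rapamycin at 3.40 and 2.96 CPM in WT+R and 6.57, 10.8 and 13.1 CPM in KO+R. The KO-type and WT-type libraries did not overlap in any treatment, and the rapamycin libraries lay below the untreated ones of the same genotype. These levels rest on 69 to 410 counts per library, and 4.4% of the exonic bases are shared with Atp5pf on the other strand.

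F11r (JAM-A, ENSMUSG00000038235.6, chr1:171265092-171292958, + strand) was at 298, 233 and 224 CPM in WT and 261, 233 and 252 CPM in KO, with 152 and 228 CPM in WT+P, 294 and 281 CPM in WT+R, 166, 157 and 227 CPM in KO+P and 320, 219 and 232 CPM in KO+R. The KO+P libraries lay below the KO libraries, and the WT and KO libraries overlapped. Esam (ENSMUSG00000001946.16, chr9:37439344-37449615, + strand) was at 1130, 948 and 1207 CPM in WT, 491 and 887 CPM in WT+P, 845 and 849 CPM in WT+R, 959, 746 and 939 CPM in KO, 568, 598 and 793 CPM in KO+P and 928, 755 and 881 CPM in KO+R. Of the WT+P libraries, replicate 1 was far lower than replicate 2 in Esam as in Cldn5. Tjp1 (ZO-1, ENSMUSG00000030516.16, chr7:64945898-65177529, - strand) was at 413, 333 and 496 CPM in WT, 253 and 348 CPM in WT+P, 402 and 299 CPM in WT+R, 360, 295 and 296 CPM in KO, 201, 179 and 286 CPM in KO+P and 334, 264 and 266 CPM in KO+R. Its KO+P libraries lay below the KO libraries, and KO overlapped WT although it was lower in 3 of 3 pairs of the same replicate number.

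**Figure D2:**
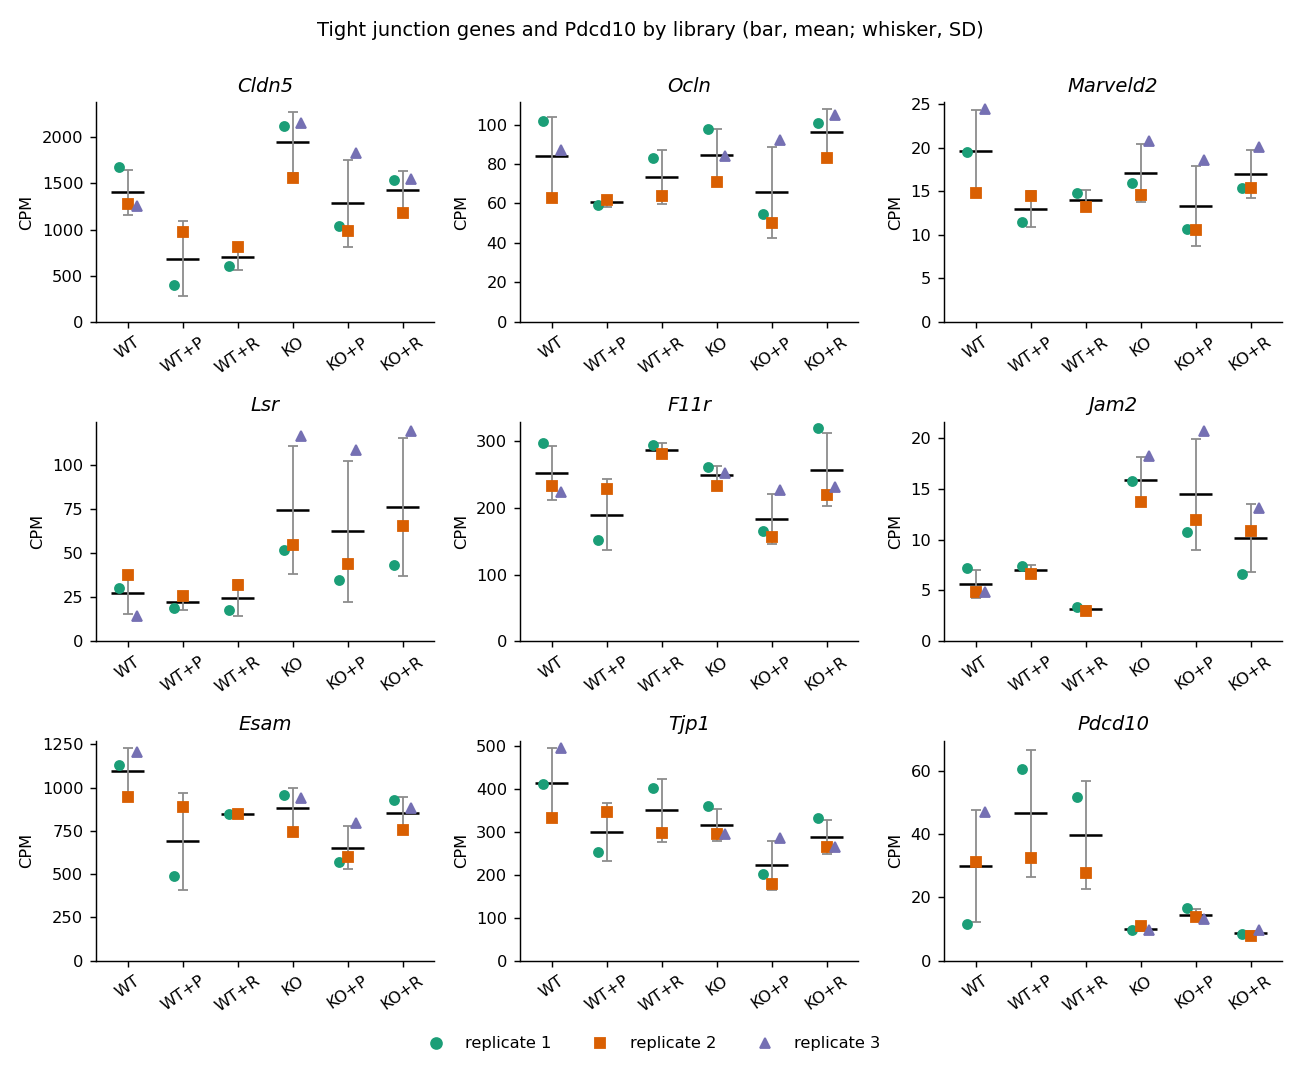
CPM of the 8 tested tight junction genes and of Pdcd10 in each library, by group, with the mean (bar) and SD (whisker) of 2 or 3 libraries and the replicate number by symbol. Jam2 and Lsr lie higher in KO, KO+P and KO+R than in the matching WT groups, and Pdcd10 of WT replicate 1 lies at 11.5 CPM, near the KO libraries.

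The first comparison was KO against WT. Jam2 was 2.84-fold higher in KO (log2 fold change 1.5, SE 0.30, unadjusted p = 0.000228) and Lsr 2.72-fold higher (log2 fold change 1.44, SE 0.52, unadjusted p = 0.0166). Neither passed edgeR's quasi-likelihood test after Benjamini-Hochberg adjustment over all 14838 tested genes (adjusted p = 0.287 and 0.621). The other 6 genes ranged from -0.39 (Tjp1) to 0.47 (Cldn5) on the log2 scale. Thus 0 of 8 genes were called (adjusted p under 0.05 and a fold change above 1.5), 2 had an unadjusted p under 0.05 and DESeq2 called 1, Jam2, at an adjusted p of 0.00129. Of all tested genes 0.00674% were called by edgeR and 0.496% by DESeq2, and 6.07% had an unadjusted p under 0.05 in edgeR. Pdcd10, the deleted gene, was not called by edgeR either (log2 fold change -1.56, adjusted p = 0.42). The absence of a call therefore does not show that a gene was unchanged. With the replicate block the adjusted p of Jam2 was 0.052 in edgeR and 3.48e-05 in DESeq2, which then called 2.76% of all genes. Without WT replicate 1 its fold change was 1.72 on the log2 scale (adjusted p = 0.275), and with the block as well it was called (1.81, adjusted p = 0.0208), as were 0.445% of all genes. Jam2 and Lsr were the 2 genes whose KO libraries all lay above the WT libraries, against 13.2% of all tested genes whose groups did not overlap in either direction. Both are on a list that the study drew from these libraries, so their direction is not independent evidence. Lsr depended on replicate 3, since without KO replicate 3 its log2 fold change was 0.97, and without WT replicate 1 it was 1.52 (adjusted p = 0.797).

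The genotype difference was then taken within each drug. Jam2 was 2.07-fold higher in KO+P than in WT+P (log2 fold change 1.05, SE 0.34, adjusted p = 0.606 by edgeR) and 3.18-fold higher in KO+R than in WT+R (1.67, SE 0.35, adjusted p = 0.262). Lsr was 2.80-fold higher (1.49, SE 0.61, adjusted p = 0.76) and 3.09-fold higher (1.63, SE 0.61, adjusted p = 0.754), and Cldn5 1.87-fold (0.91, SE 0.36, adjusted p = 0.744) and 2.01-fold higher (1.01, SE 0.36, adjusted p = 0.725). In each of these comparisons these 3 genes had an unadjusted p under 0.05, against 6.19 and 5.72% of all tested genes. Of the 8, 0 were called by edgeR, as were 0% of all tested genes in both. Pdcd10 was thus not called in either (-1.68, adjusted p = 0.481, and -2.21, adjusted p = 0.194). DESeq2 called none of the 8 for propranolol, with 0.439% of all genes called, and Jam2 for rapamycin, at an adjusted p of 0.00174, with 0.497% of all genes called (2.1% with the replicate block). In KO+P against WT+P 3 genes were higher with no overlap, against 16.6% of all tested genes with no overlap in either direction. In KO+R against WT+R 5 were (Cldn5, Ocln, Marveld2, Lsr and Jam2), against 19.2% in either direction. The Cldn5 difference under propranolol rested on WT+P replicate 1, without which it was 0.40 (1.69 without WT+P replicate 2, and 0.57 without KO+P replicate 3). Without KO+P replicate 3 Lsr was at 0.83 and Jam2 at 0.70 in this comparison.

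Cell type markers were set beside the genotype comparisons, and their part in these differences was not tested. The summed brain endothelial markers (17 of 17 tested) were 3238 to 6177 CPM in WT and 6558 to 8898 CPM in KO, although 6 of the 17 were higher and 11 lower, with a median log2 fold change of -0.21, 0 called by edgeR, 2 at an unadjusted p under 0.05 and 1 called by DESeq2. Ly6a and Ly6c1 weighed most in these sums, with medians over all libraries of 2350 CPM (392 to 4380) and 1660 CPM (288 to 3080). The mural markers (10 of 13 tested) summed to 109 to 871 CPM in WT and 95.6 to 234 CPM in KO, which overlapped. In KO 6 of 10 were higher, with a median of 0.19, 2 at an unadjusted p under 0.05, 0 called by edgeR and 1 (Anpep) by DESeq2. They summed to 1469 to 2569 CPM in WT+R against 312 to 467 CPM in KO+R, although 6 of 10 were higher in KO+R, with a median of 0.12. There 5 had an unadjusted p under 0.05, 0 were called by edgeR and 2 (Acta2 and Anpep) by DESeq2. DESeq2 called the same 2 in KO+P against WT+P. Of all genes it called 0.496% in KO against WT, 0.439% in KO+P against WT+P and 0.497% in KO+R against WT+R. Acta2 and Anpep went in opposite directions in KO against WT, at -1.76 and 2.31 on the log2 scale in edgeR without WT replicate 1. Of all tested genes, 6.07% (KO against WT) and 5.72% (KO+R against WT+R) had an unadjusted p under 0.05. Most of the WT+R and KO+R sums was Tagln and Acta2, with the pericyte markers Kcnj8 and Vtn at a median of 0. In bulk libraries fewer cells of a type and less RNA per cell cannot be told apart.

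Propranolol was compared with no drug in each genotype. In KO cells all 8 tested genes were lower, with a median log2 fold change of -0.40 against -0.01 over all tested genes, of which 50.7% were below 0. Cldn5 was at 0.66-fold (log2 fold change -0.60, SE 0.32, adjusted p = 0.442 by edgeR), Tjp1 at -0.51 (SE 0.21, adjusted p = 0.359) and F11r at -0.44 (SE 0.20, adjusted p = 0.381). Here 0 of 8 were called, with 0.00674% of all tested genes called, and DESeq2 called 0 of the 8 and 1.15% of all genes. Of the 8, 2 had an unadjusted p under 0.05, against 12.6% of all tested genes. F11r and Tjp1 were lower with no overlap, against 18.7% of all tested genes with no overlap in either direction. Without KO+P replicate 3 Cldn5 was at -0.94 (adjusted p = 0.128). In WT cells 7 of 8 genes were lower, with a median of -0.47 against 0.00 over all tested genes. Cldn5 was at 0.489-fold (-1.03, SE 0.36, adjusted p = 0.449), Esam at 0.629-fold (-0.67, SE 0.24, adjusted p = 0.449) and Marveld2 at -0.60 (SE 0.28, adjusted p = 0.515). Of the 8, 0 were called, with 0.00674% of all tested genes called, and DESeq2 called 0 of the 8 and 0.861% of all genes. An unadjusted p under 0.05 was found for 2 of the 8, against 9.87% of all tested genes. Cldn5, Ocln, Marveld2 and Esam were lower with no overlap, against 21.2% of all tested genes with no overlap in either direction. These WT values rested on WT+P replicate 1. Without it Cldn5 was at -0.53 and Esam at -0.30, and without WT+P replicate 2, which leaves 1 library assumed to vary like the others, both were called (-1.82, adjusted p = 0.0317, and -1.15, adjusted p = 0.0302), with 3.54% of all genes called. Without WT replicate 1 Cldn5 was at -0.89, Esam at -0.65 and Marveld2 at -0.61 (adjusted p = 0.811 for each), and with the replicate block as well at -0.71, -0.52 and -0.28.

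General endothelial markers moved with propranolol too, and their part in the result was not tested. All 15 were lower in WT+P than in WT (median log2 fold change -0.50) and 13 of 15 in KO+P than in KO (median -0.31), with 0 called in either by edgeR or DESeq2. In each, 3 had an unadjusted p under 0.05, against 9.87% of all tested genes in WT and 12.6% in KO. The sum of the 15 was 15107 to 19974 CPM in WT against 11154 to 14684 CPM in WT+P, and 15879 to 17917 CPM in KO against 11531 to 16295 CPM in KO+P.

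Rapamycin was compared in the same way. In KO cells Jam2 was at 0.637-fold (log2 fold change -0.65, SE 0.29, adjusted p = 0.376 by edgeR) and the other 7 genes ranged from -0.45 (Cldn5) to 0.19 (Ocln). The median of the 8 was -0.03, against -0.02 over all tested genes. None of the 8 was called, although 1.51% of all tested genes were called, and DESeq2 called 0 of the 8 and 3.19% of all genes. Of the 8, 1 had an unadjusted p under 0.05, against 12.5% of all tested genes. Without KO+R replicate 1 Jam2 was at -0.39. Cldn5 and Jam2 were lower with no overlap, against 24.1% of all tested genes with no overlap in either direction. In WT cells Cldn5 was at 0.505-fold (-0.99, SE 0.36, adjusted p = 0.245) and Jam2 at 0.568-fold (-0.82, SE 0.34, adjusted p = 0.323). Of the 8 genes 7 were lower, with a median of -0.31 against -0.01, and 0 were called, whereas 1.4% of all tested genes were called. An unadjusted p under 0.05 was found for 2 of the 8, against 12.6% of all tested genes. DESeq2 called 0 of the 8 and 3.78% of all genes. Cldn5, Marveld2, Jam2 and Esam were lower with no overlap, against 28.6% of all tested genes with no overlap in either direction, a high background. Without WT replicate 1 Cldn5 was at -0.84 and Jam2 at -0.60, and with the replicate block as well at -0.64 and -0.34.

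Markers moved with rapamycin as well, and their part in the values of the tight junction genes was not tested. In WT+R against WT the smooth muscle gene Acta2 rose (log2 fold change 2.74, adjusted p = 0.0469 by edgeR), and the summed mural markers went from 109 to 871 CPM to 1469 to 2569 CPM, with 6 of 10 higher. Of the endothelial markers Eng (endoglin) rose in WT (1.27, adjusted p = 0.0175) and KO (0.98, adjusted p = 0.0316), and the amino acid transporter gene Slc7a5 fell in WT (-1.78, adjusted p = 0.0481) and KO (-1.56, adjusted p = 0.0405). Of the 15 general endothelial markers, 5 were higher and 10 lower in WT+R than in WT, with a median log2 fold change of -0.18. DESeq2 called 5 of them there, Cd34, Cdh5, Egfl7, Emcn and Eng, against 3.78% of all genes. Unlike Eng, Cdh5 was lower (-0.68, adjusted p = 0.0874 by edgeR). Without WT replicate 1 the WT values of Acta2, Eng and Slc7a5 were 2.34, 1.23 and -1.84 and none was called (adjusted p = 0.112, 0.0608 and 0.0925).

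**Figure D3:**
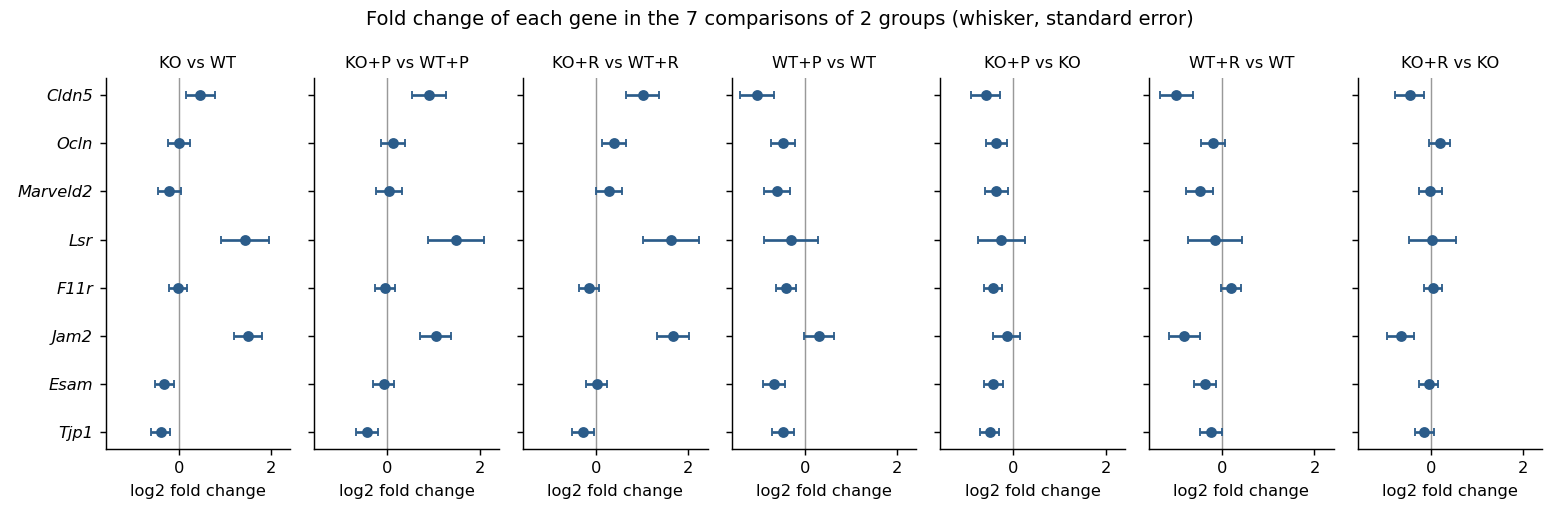
Log2 fold change of the 8 tested genes in the 7 comparisons of 2 groups, with edgeR's standard error as whisker. Jam2 and Lsr lie at 1.05 or above in the 3 genotype comparisons, and Cldn5 lies below 0 in the 4 drug comparisons, none of these passing the adjusted test in edgeR.

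The 6 groups were also tested together. Jam2 differed among them (adjusted p = 0.00662 by edgeR), the 1 gene of 8 called, against 7.68% of all tested genes. Cldn5 (adjusted p = 0.0745), Lsr (0.116), Tjp1 (0.134) and Esam (0.199) had an unadjusted p under 0.05 and were not called. With Jam2, 5 of 8 genes had an unadjusted p under 0.05, against 23.9% of all tested genes. DESeq2 called Cldn5, Lsr and Tjp1 beside Jam2 and 20.1% of all genes, and with the replicate block 6 of 8 members and 35.7% of all genes. Whether a drug acted differently by genotype was tested as an interaction, and 0 of 8 genes were called for propranolol or rapamycin by edgeR or DESeq2. Of all tested genes, edgeR called 0% for each drug, and DESeq2 0 and 0.00368%. No member had an unadjusted p under 0.05, against 0.721 and 0.762% of all tested genes. The interaction of Cldn5 was 0.43 (SE 0.48) for propranolol and 0.54 (SE 0.48) for rapamycin on the log2 scale. With such errors a difference between genotypes in the drug response of Cldn5 could not be told from none.

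**Figure D4:**
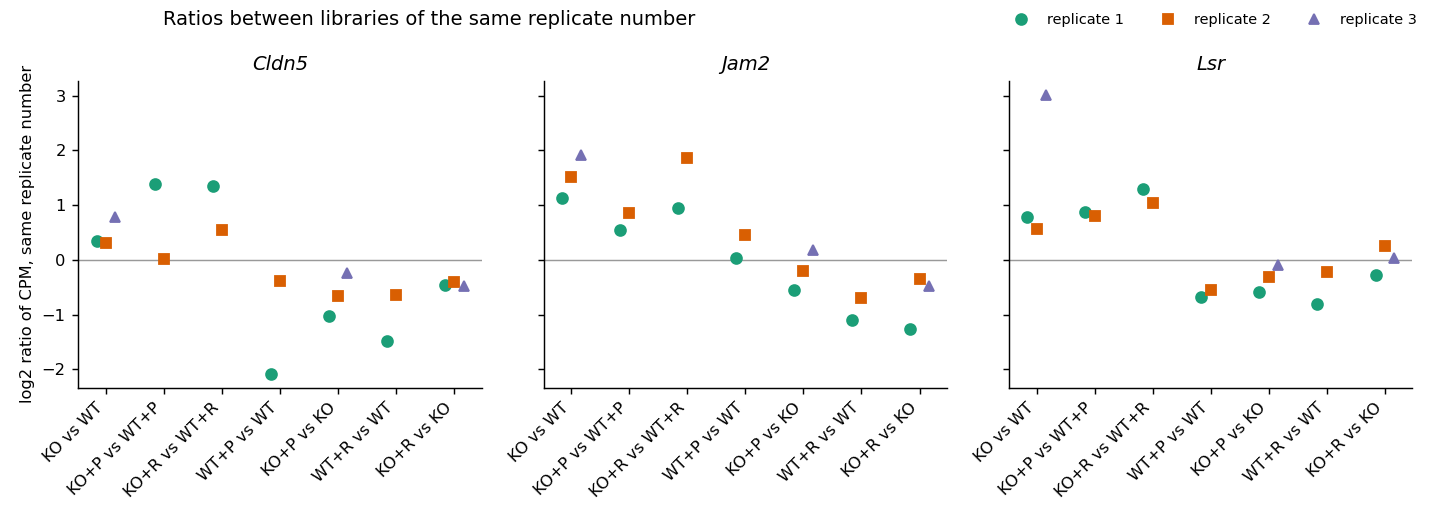
Log2 ratio of CPM between libraries of the same replicate number, for Cldn5, Jam2 and Lsr in the 7 comparisons, with a symbol per replicate number. Jam2 and Lsr are above 0 in each KO to WT pair, from 0.55 for Jam2 and 0.56 for Lsr upwards, and Lsr of replicate 3 reaches 3.01.

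Tjp1 and Lsr are made as alternative transcripts, and the shares of these were examined. Tjp1-202 was the main transcript by counts (72.4 to 84.0%) and held 43.4 to 51.1% of the Tjp1 TPM. It has 7049 bases, against 5938 for Tjp1-207 and 6102 for Tjp1-201. Tjp1-203, with 699 bases and no defined coding sequence, held 3.1 to 4.79% of the counts. TPM corrects for length and gives this short transcript more weight, so the TPM share of Tjp1-202 is not its share among the long transcripts. Tjp1-202 was the only 1 of 7 Tjp1 transcripts in the files with the exon at chr7:64963841-64964080 (GRCm39, - strand). This exon codes for the alternatively spliced alpha motif of ZO-1. The share of counts of Tjp1-202 was 80.3 ± 3.04% (SD) in the 6 libraries of replicate 1, 74.1 ± 1.89% (SD) in the 6 of replicate 2 and 75.0 ± 1.89% (SD) in the 4 of replicate 3. The 6 group means lay between 74.2 and 78.5%. By TPM the shares of replicates 1, 2 and 3 were 47.7 ± 2.66, 46.3 ± 2.05 and 45.6 ± 1.52% (SD). Replicate 1 had the highest mean on both scales, by less on the TPM scale, and the libraries of the replicates overlapped on both. The group means by TPM lay between 44.0 and 48.3%. The exon has 240 bases, a multiple of 3, and reads as follows on the gene's strand.
Tjp1 exon: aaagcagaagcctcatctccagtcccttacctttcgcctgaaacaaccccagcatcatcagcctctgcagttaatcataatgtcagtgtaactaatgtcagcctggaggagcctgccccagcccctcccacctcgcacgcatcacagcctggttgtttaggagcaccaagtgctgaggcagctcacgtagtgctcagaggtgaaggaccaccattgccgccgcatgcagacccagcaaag
Lsr-203 took 44.9 to 72.9% of the Lsr counts, Lsr-201 up to 43.2% and Lsr-202 7.36 to 27.1%. They differ by an exon of 57 bases at chr7:30662236-30662292, held by Lsr-201 alone among these, and an exon of 147 bases at chr7:30661523-30661669, held by Lsr-201 and Lsr-203, both on the - strand and both a multiple of 3. The 147-base exon is shown because it separates the less frequent Lsr-202 from the others and the 57-base exon because it separates the other two.
Lsr exon of 57 bases: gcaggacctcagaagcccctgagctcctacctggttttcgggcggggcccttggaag
Lsr exon of 147 bases: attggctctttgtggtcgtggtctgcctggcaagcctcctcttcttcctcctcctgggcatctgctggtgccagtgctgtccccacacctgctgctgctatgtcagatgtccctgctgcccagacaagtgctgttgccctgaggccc
Transcripts with the 147-base exon held 71.2 to 92.0% of the Lsr TPM, and the group means of 81.2 to 86.1% had overlapping libraries. Lsr-201 was listed at 0 in WT+P replicate 2, although the gene had 641 counts there, and such shares are estimates in which reads common to several transcripts are divided among them. Ocln was split among Ocln-201, Ocln-203 and Ocln-202, with median shares of 36.4, 30.2 and 29.4%. Marveld2-203 ranged from 11.9 to 100% on 248 to 596 counts per library, so its shares are given without comparison. A single transcript held nearly all counts of Cldn5 and Esam and a median of 91.1% for F11r (F11r-201) and 89.2% for Jam2 (Jam2-202).

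**Figure D5:**
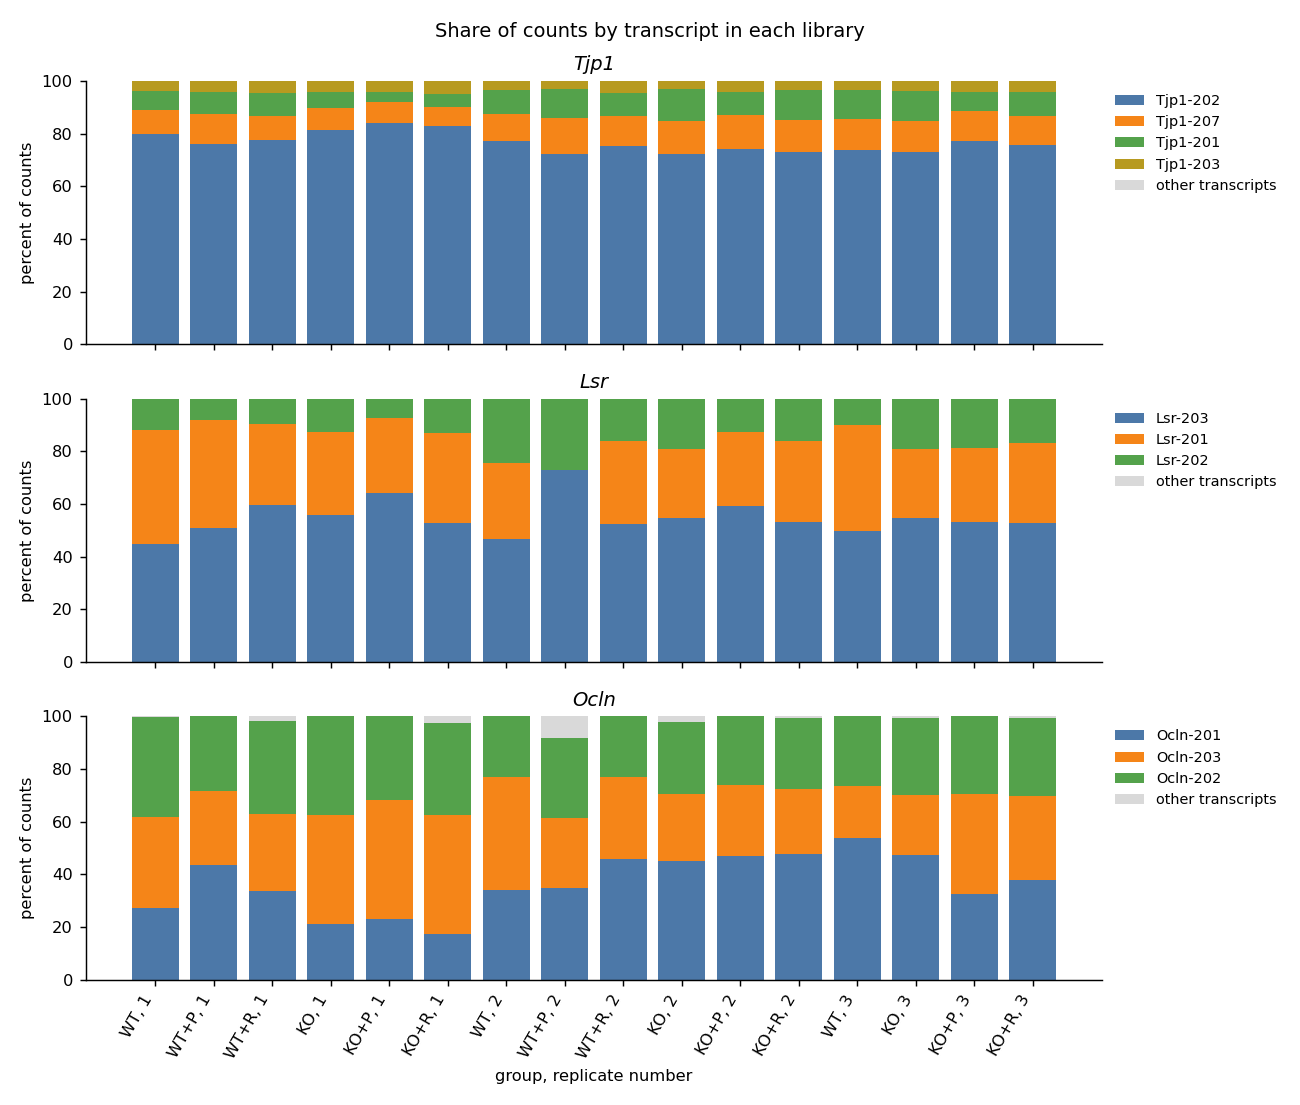
Percent of the counts of Tjp1, Lsr and Ocln by transcript in each of the 16 libraries, ordered by replicate number and then group. Tjp1-202 holds 72.4 to 84.0% of the counts (43.4 to 51.1% by TPM, which gives the 699-base Tjp1-203 more weight), and Lsr-201 is listed at 0 in WT+P replicate 2.

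The genes also varied together across libraries. Esam and Tjp1 had r = 0.83 and rho = 0.83, Marveld2 and Esam r = 0.82 and rho = 0.74, Ocln and Marveld2 r = 0.80 and rho = 0.86 and Lsr and Jam2 r = 0.78 and rho = 0.80, as Pearson and Spearman coefficients of log2 CPM over the same 16 libraries. Jam2 and Lsr ran against Tjp1 (r = -0.44 and -0.40). For members with a mean of at least 10 CPM, similar profiles were sought among all tested genes. The genes most like Cldn5 were Rin3 (r = 0.94), Vamp5 (0.94) and Gstm2 (0.93). Those most like Lsr were Abi3 (0.97), Plekho1 (0.95) and Ceacam1 (0.93), and those most like Tjp1 were Shroom2 (0.97), Map4k5 (0.95) and Hdac3 (0.95). The 16 points share cultures, groups and library depth, and the coefficients are descriptions only.

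Other junction genes were taken from lists. In a comparison of 2 groups edgeR called at most 1.51% and DESeq2 at most 3.78% of all genes, and in the joint test 7.68 and 20.1%. From 5.72 to 12.6% of all tested genes had an unadjusted p under 0.05 in a comparison of 2 groups. Of 28 further claudins, 10 passed the filter and 7 had 0 counts in all libraries. Cldn4 was the 1 claudin called by edgeR in a comparison of 2 groups. It fell with rapamycin in KO (log2 fold change -3.22, SE 0.57, adjusted p = 0.0156) and in WT (-3.18, SE 0.64, adjusted p = 0.0282), and DESeq2 called it in both and also Cldn1 in KO+R against WT+R. Without WT replicate 1 the WT value was -3.33 and was not called (adjusted p = 0.058). Its levels were 2.09 to 6.36 CPM in WT and 0.358 to 0.473 CPM in WT+R, and 1.78 to 2.44 CPM in KO and 0.159 to 0.312 CPM in KO+R, on 3 to 11 counts per rapamycin library. Cldn1 (adjusted p = 0.0486), Cldn4 (0.00496) and Cldn23 (0.0399) differed among the 6 groups in the joint test, Cldn1 no longer without WT replicate 1 (adjusted p = 0.0705). DESeq2 called 7 claudins there, against 20.1% of all genes. No other claudin approached Cldn5, the next in median TPM being Cldnd1, a claudin-domain protein, at 29.8 and Cldn1 at 13.1.

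Of 9 tested genes of other tight junction membrane proteins, 0 were called by edgeR or DESeq2 in the comparisons of 2 groups, with 0 to 2 at an unadjusted p under 0.05 in each. In the joint test edgeR called 1 (Tmem47, adjusted p = 0.0205) and DESeq2 3 (Igsf5, Jam3 and Tmem47), against 7.68 and 20.1% of all genes. Tmem47 was lower in KO than in WT at -0.64 (SE 0.17, adjusted p = 0.42), and at -0.68 without WT replicate 1, and it was at -0.70 and -0.65 in the other genotype comparisons. Of 30 tested scaffold and polarity genes, 0 were called by edgeR in comparisons of 2 groups, with 1 to 8 at an unadjusted p under 0.05 in each, and DESeq2 called 1 (Amotl2, rapamycin in KO). In the joint test 3 were called, among them Afdn and Amotl2, of which Amotl2 was lost without WT replicate 1 (adjusted p = 0.0581), and DESeq2 called 9. Of 21 tested adherens junction genes, Vcl (vinculin, 1.29, adjusted p = 0.0469) rose and Ptprm (-0.59, adjusted p = 0.0264) fell with rapamycin in WT. Without WT replicate 1 they were at 1.29 and -0.54 and neither was called (adjusted p = 0.123 and 0.0871). In KO Vcl was at 0.94 (adjusted p = 0.119) and Ptprm at -0.52 (adjusted p = 0.0268), which missed the call on its fold change. DESeq2 called Vcl, Ptprm, Cdh5, Ctnnd1 and Pdlim5 with rapamycin in WT, Vcl and Limch1 in KO, and Vcl in KO+P against WT+P and KO+R against WT+R. In the joint test edgeR called 5, Ctnnd1, Vcl, Limch1, Ptprm and Pdlim5, and DESeq2 11, against 7.68 and 20.1% of all genes. The median of these 21 genes was -0.40 with propranolol in KO, with 19 of 21 lower and 0 called by edgeR or DESeq2. Of the 21, 8 had an unadjusted p under 0.05 there, against 12.6% of all tested genes. Cdh5, the gene of VE-cadherin and the source of the promoter that drives the recombinase, was at -0.39 in KO against WT (SE 0.16, adjusted p = 0.732) and -0.68 in WT+R against WT (SE 0.18, adjusted p = 0.0874), and without WT replicate 1 at -0.41 and -0.69.

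Of 20 transcription factors known to act on Cldn5 or Ocln, all tested, Ets1 fell with rapamycin in KO (-0.68, adjusted p = 0.0316) and WT (-0.91, adjusted p = 0.0177), where it was also called without WT replicate 1 (-1.05, adjusted p = 0.0171). Klf4 was 1.47 (SE 0.42, adjusted p = 0.486) and Klf2 1.25 (SE 0.41, adjusted p = 0.561) on the log2 scale in KO against WT, and without WT replicate 1 they were at 1.48 and 1.46. With propranolol Klf4 was at 1.05 (SE 0.42, adjusted p = 0.354) in KO and 1.14 (SE 0.46, adjusted p = 0.475) in WT, where it was at 1.15 without WT replicate 1. Ets1, Klf4 and Rarg were called in the joint test, as were 7.68% of all tested genes, Rarg no longer without WT replicate 1 (adjusted p = 0.0588). DESeq2 called 8 of the 20 in the joint test, against 20.1% of all genes. In the comparisons of 2 groups it called Ets1 with rapamycin alone.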

How the data were processed

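Poly(A) RNA of 16 mBMEC cultures was sequenced as unstranded paired-end libraries. For each transcript the authors deposited an estimated count and a TPM value in the format of Salmon (version 1.5.2 in the submitters' notes, where STAR, HTSeq and DESeq2 are named too), on GRCm39. The transcript index is not given in the sources used here. The effective lengths deposited by the authors were used in an alternative only. Of 140789 transcripts, 139544 (99.12%) were named in GENCODE vM39. Their estimated counts were summed per gene and rounded, which kept 99.43 to 99.61% of the counts, and TPM was summed likewise. Exon positions come from vM39, whose transcript models can differ from those of the index.

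All libraries were fitted in 1 quasi-likelihood model with edgeR (4.0.16, R 4.3.3) after filterByExpr, which left 14838 of 27228 genes with any count, and contrasts gave the comparisons. The model had 10 residual degrees of freedom and a biological coefficient of variation of 32.3%. Adjusted p-values are those of Benjamini and Hochberg over all tested genes, and SE was taken from the fold change and its F statistic. Members were called at an adjusted p under 0.05 and a fold change above 1.5, and in interactions and the joint test at the adjusted p alone. DESeq2 (1.42.0), RLE size factors, no filter, a replicate block, a fit of only the groups compared, an offset for effective length and leaving out each library were the alternatives. The fits of the listed genes without WT replicate 1 were added after the data were seen. The code was tested on simulated data.

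In the groups compared, libraries of the same replicate number departed together from their group means (17 pairs, r from 0.19 to 0.69), so the numbers were taken to pair the libraries. The pairing comes from these values and is not in the labels. Statistics are printed for members with a log2 fold change of at least 0.58 in size or an unadjusted p under 0.05. From each list up to 4 genes with the smallest p were eligible, and other listed genes are named where they were called or, as with Cgnl1, Cldnd1, Gm4673 and the cell type markers, to place a member, after their values were seen. The likeness of profiles was ranked by Pearson's r of log2 CPM with a prior count of 2. The genes and lists were chosen with earlier results of these data known. P-values measure the spread between libraries within groups, each library from pooled mice. The main model had no block and so treated libraries of the same replicate number as independent. Columns with values of no sample numbered 0. The marker lists for fibroblasts, microglia and macrophages, oligodendrocytes, neurons, epithelium, lymphatic endothelium and astrocytes were summed per library, and gave at most 202, 27.5, 2.04, 94.6, 27.0, 335 and 110 CPM. Some genes of the lists are counted but not reported here by name.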

Additional observations from a re-analysis of the deposited data

How the results depend on the processing

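Of the counts of called members, 140 stayed the same under the alternatives and 11 moved, and none of the member fold changes that reached 0.58 in size on the log2 scale or an unadjusted p under 0.05 changed direction under the alternatives run. The smaller fold changes were not followed through the alternatives. For KO against WT, DESeq2, DESeq2 with the replicate block, and the fit that left out WT replicate 1 with the replicate block each called 1 member, Jam2. For KO+R against WT+R, DESeq2 with and without the replicate block called 1, also Jam2. In the joint test of the 6 groups the count was 4 with DESeq2, 6 with DESeq2 and the replicate block, and 3 with no filter on low counts. Leaving out single libraries gave 0 to 2 calls for WT+P against WT, with 2 (Cldn5 and Esam) without WT+P replicate 2, and 1 to 3 in the joint test, with 3 without WT+P replicate 2 (Cldn5, Esam, Jam2) or KO+P replicate 3 (Cldn5, Jam2, Tjp1). For the joint counts with no filter or with a library left out, no share of all genes is given. The replicate block in edgeR changed no call and lowered the coefficient of variation from 32.3 to 19%. The adjusted p of Jam2 in KO against WT was then 0.05198, and it ranged from 3.481e-05 to 1.0 over all alternatives. The cause of these moves was not tested, beyond the smaller number of libraries where one was left out. The order of the members by level was the same with the mean of log2(TPM + 1). WT+P and WT+R had 2 libraries each, which limits the precision of every WT drug value, and Jam2 and Marveld2 had the fewest counts of the tested members.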
